A study of Mus musculus with 6 samples.

Results

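The muscle acetylcholine receptor subunit genes and the core genes of agrin signalling at the neuromuscular synapse were examined in muscle stem cells (MuSCs). The 10 genes were chosen by name: the subunits *Chrna1*, *Chrnb1*, *Chrnd*, *Chrng* and *Chrne*, and *Agrn*, *Lrp4*, *Musk*, *Dok7* and *Rapsn*. Each had its own entry among the 25166 genes of the deposited RNA-seq table. The values came from 3 Sirt6mKO and 3 control (Ctrl) samples of FACS-isolated MuSCs, with 1 library each. In Sirt6mKO mice a Cre recombinase driven by the *Pax7* promoter (Pax7ICN), which is active constitutively in PAX7+ cells and their descendants, deletes floxed *Sirt6*, the gene of a histone deacetylase. The labels call the controls wild type, and the legend of the supplement describes them as floxed *Sirt6* animals that lack Cre. Mice were males on a C57BL/6 background, 12 weeks old according to that legend. Cells were sorted without Sca1, CD45 and CD31 and with integrin-α7 and CD34, or with a GFP or YFP reporter, from digested limb and trunk muscle. The methods take YFP from mice that carry the Pax7ICN Cre, and do not say which gate served which group. Gate and genotype may therefore coincide. Each sample held 100 to 200 cells. The labels do not say whether samples of a group came from separate mice, so the p-values measure only the spread between these samples.

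MuSCs lie beneath the basal lamina of muscle fibers and are not innervated. The neuromuscular synapse is built by the fiber: agrin released by the motor nerve binds LRP4, LRP4 activates the receptor kinase MuSK, DOK7 docks on MuSK and sustains its activity, and rapsyn then anchors acetylcholine receptors in dense clusters beneath the nerve ending. The receptor is a pentameric cation channel of α1, β1 and δ subunits together with either the γ subunit of fetal and denervated muscle or the ε subunit of adult muscle. In fibers the subunit genes are driven by myogenic factors that bind E-boxes, and a few nuclei beneath the synapse transcribe them most, partly through the N-box, a site for ETS factors such as GABP.

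The values of the table are whole numbers without a unit, here called signal and read as rounded quotients of reads and a size factor for each library. The size factors were recovered by a likelihood fit to how often each whole number occurs. They were 0.558 to 1.372, which puts 1267027 (Ctrl replicate 3) to 3208460 (Ctrl replicate 2) reads behind the libraries. One read stood for a signal of 0.729 to 1.792. At gene level the signal of *Sirt6* averaged 17.3 ± 3.79 in Sirt6mKO and 18.3 ± 1.53 in Ctrl libraries (SD, n = 3 each). These values count reads of all exons together, floxed or not, so they do not check the deletion, which was not tested here. The MuSC marker *Myf5* had a signal of 850 to 1074 over all libraries. *Pax7*, the defining MuSC marker, had 1841, 2307 and 1810 in Sirt6mKO and 4066, 3449 and 3150 in Ctrl. It was present in every library but lower in all Sirt6mKO libraries (log2 fold change −0.84, adjusted p 0.0041 by limma, at most 0.04 in the alternatives). The 14 MuSC markers went both ways: by the adjusted p alone 1 was higher and 1 (*Pax7*) lower in Sirt6mKO. All Sirt6mKO libraries lay above all Ctrl libraries for 2 of them and below for 4. Of the markers of other cells, the endothelial genes ranged from *Cldn5*, at 1 or less, over *Pecam1* (4 to 29) to *Tek* (349 to 562), and the immune genes from *Csf1r*, at 3 or less, over *Lyz2*, at 7 or less, to *Cd68* (34 to 70). The summed signal of 18 myofiber markers was 3620, 3980 and 1848 in the Sirt6mKO replicates and 1446, 1315 and 1615 in the Ctrl replicates. That of 10 fibroblast markers was 12817 to 14726 in Sirt6mKO and 8865 to 13388 in Ctrl. By the rule for calls given below, 3 of 17 tested myofiber markers and 3 of 8 fibroblast markers were higher in Sirt6mKO, and none of the 14 MuSC, 7 early myocyte, 5 Schwann cell, 2 endothelial and 1 immune markers tested was called.

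The DNA before the start sites of 5 members is shown, because subunit and *Musk* genes are known to be controlled through E-boxes and the N-box. The windows were searched for matches to these motifs, and whether a match acts as a control site was not tested. Each is the 250 bases before a RefSeq start site (GRCm38.p6), 5′ to 3′ on the strand of the gene. Capitals mark E-boxes (CANNTG, which reads the same on both strands) and the N-box (CCGGAA on either strand).
Chrna1, chr2:73580339-73580588, minus strand: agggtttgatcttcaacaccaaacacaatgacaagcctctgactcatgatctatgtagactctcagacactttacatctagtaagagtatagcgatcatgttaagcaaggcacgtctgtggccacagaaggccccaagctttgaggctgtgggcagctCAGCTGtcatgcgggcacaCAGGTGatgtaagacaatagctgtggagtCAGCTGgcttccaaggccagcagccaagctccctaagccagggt
Chrnb1, chr11:69795938-69796187, minus strand: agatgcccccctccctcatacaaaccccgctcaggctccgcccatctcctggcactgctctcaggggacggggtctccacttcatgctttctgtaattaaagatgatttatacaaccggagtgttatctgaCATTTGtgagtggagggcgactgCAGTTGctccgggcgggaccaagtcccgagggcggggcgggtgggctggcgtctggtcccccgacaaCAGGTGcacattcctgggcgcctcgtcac
Musk, chr4:58285712-58285961, plus strand: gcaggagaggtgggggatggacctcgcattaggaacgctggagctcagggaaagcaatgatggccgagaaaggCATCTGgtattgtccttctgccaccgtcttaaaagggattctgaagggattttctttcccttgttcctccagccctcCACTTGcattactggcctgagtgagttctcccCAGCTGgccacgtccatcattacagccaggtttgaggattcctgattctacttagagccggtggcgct
Chrng, chr1:87205561-87205810, plus strand: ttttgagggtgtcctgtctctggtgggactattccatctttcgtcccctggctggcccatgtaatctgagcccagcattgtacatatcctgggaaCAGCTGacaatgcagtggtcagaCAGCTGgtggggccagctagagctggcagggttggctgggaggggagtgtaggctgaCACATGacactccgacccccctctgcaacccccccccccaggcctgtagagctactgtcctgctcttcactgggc
Chrne, chr11:70619195-70619444, minus strand: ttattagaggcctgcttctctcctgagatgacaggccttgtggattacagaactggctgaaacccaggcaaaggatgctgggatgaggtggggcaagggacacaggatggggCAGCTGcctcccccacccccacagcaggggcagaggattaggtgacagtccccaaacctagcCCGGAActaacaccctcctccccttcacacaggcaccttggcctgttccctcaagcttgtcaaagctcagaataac

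The windows of *Chrna1*, *Chrnb1*, *Musk* and *Chrng* held 3 E-boxes each, and that of *Chrne* held 1 E-box and the only N-box found in a window of a member. The E-boxes of *Chrna1* began 92, 73 and 44 bases before the start site, and the N-box of *Chrne* 76 bases before it. Of 32851 such windows of mouse genes, 66.2% held at least 1 E-box, 12.2% at least 3 and 12.0% an N-box. The *Chrng* window lies before a RefSeq start that is 1154 bases inside the gene as the table places it. Windows were found for 7 of the 10 members; the 2 of *Agrn* held no E-box and 1 E-box, as did the 2 of *Dok7*. The E-box counts did not separate the members by level, since *Chrna1*, *Chrnb1* and *Musk* were abundant and *Chrng*, with as many, was close to undetected.

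Levels were compared between genes on 1 scale only, the signal per kilobase of annotated exons. The members fell into an abundant, a middle and a scarce group. *Chrnb1*, *Rapsn*, *Musk* and *Chrna1* reached 251, 126, 113 and 101 per kilobase as means of the 6 libraries, which placed them at percentiles 98.8, 96.8, 96.2 and 95.4 of the protein-coding genes in the table. *Agrn* had 24.6 (percentile 71.3) and *Lrp4* 8.54 (percentile 45.5). *Chrne*, *Chrnd*, *Dok7* and *Chrng* had 2.66, 1.62, 1.56 and 0.24, at percentiles 29.0, 24.0, 23.7 and 7.28. Every gene of the table had a signal in some library, so genes without any are outside these percentiles.

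Neighbours in this order differed beyond their spread at 4 steps. *Chrnb1* stood 1.98 times above *Rapsn*, *Chrna1* 4.1 times above *Agrn*, *Agrn* 2.89 times above *Lrp4*, and *Lrp4* 3.21 times above *Chrne*, each without overlap of the ranges over libraries. The ranges of *Rapsn*, *Musk* and *Chrna1* overlapped from one to the next, although *Musk* lay above *Chrna1* in 6 of 6 libraries. Those of the scarce members overlapped as well. Measured over the longest transcript instead of all exons, an alternative chosen after seeing the data, *Chrnb1* had 294, *Rapsn* 142, *Musk* 124 and *Lrp4* 11.3 per kilobase, and *Dok7* (2.4) came before *Chrnd* (1.81).

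**Figure D1:**
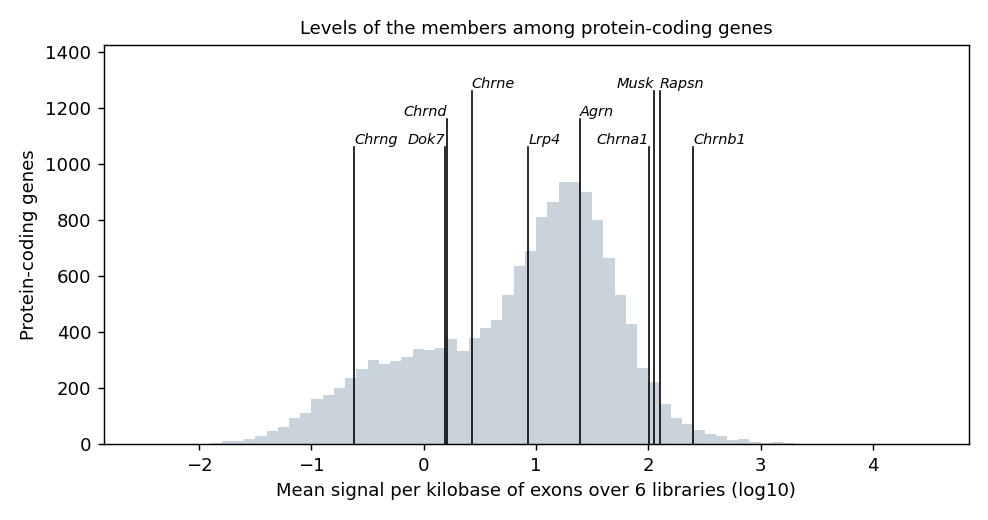
Levels of the 10 members among protein-coding genes. The x axis gives the mean signal per kilobase of exons over 6 libraries as a log10 value, the bars count protein-coding genes per bin, and the vertical lines mark the members. *Chrnb1*, *Rapsn*, *Musk* and *Chrna1* lie in the right tail, and *Chrng* lies farthest to the left.

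The subunit messages differed widely in level. With the reads of all 6 libraries pooled, *Chrnd* reached 1.65% of *Chrna1* per kilobase (exact 95% binomial interval 1.15 to 2.3), *Chrne* 2.47% (1.63 to 3.61) and *Chrng* 0.26% (0.105 to 0.537). These intervals cover counting error only. The highest share in any single library was 3.75% for *Chrnd*, 3.97% for *Chrne* and 0.722% for *Chrng*. *Chrnb1* was at 245% of *Chrna1* (234 to 258). Among the signalling genes, *Rapsn* was at 124% and *Musk* at 112% of *Chrna1*, while *Dok7* was at 1.23% (0.851 to 1.72). The message for the kinase was abundant in these libraries and that for its adaptor was at a few reads.

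None of the 10 members was called higher or lower in Sirt6mKO. The 14227 genes whose signal averaged at least 5 were tested with limma-trend on log2(signal + 1), and a call required a 2-fold or larger change along with an adjusted p (Benjamini-Hochberg) no higher than 0.05. That rule called 1.57% of all tested genes higher and 1.02% lower; by the adjusted p alone it was 2.64% and 1.88%. Of the members, 8 were tested and 2 (*Chrng* and *Chrne*) fell under the mean. With limma-trend 0 of the 8 passed the adjusted p and 1 (*Agrn*) had an unadjusted p under 0.05, against 2577 of all 14227 genes; limma voom on the estimated reads called 0 members too. The median log2 fold change was −0.02 for the 8 members and 0.00 for all tested genes. All Sirt6mKO libraries lay above all Ctrl libraries for 1 member and below for 1, where 11.1% and 10.1% of all tested genes did so. In RNA of bulk samples, fewer cells that express a gene and less RNA per cell cannot be told apart.

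**Figure D2:**
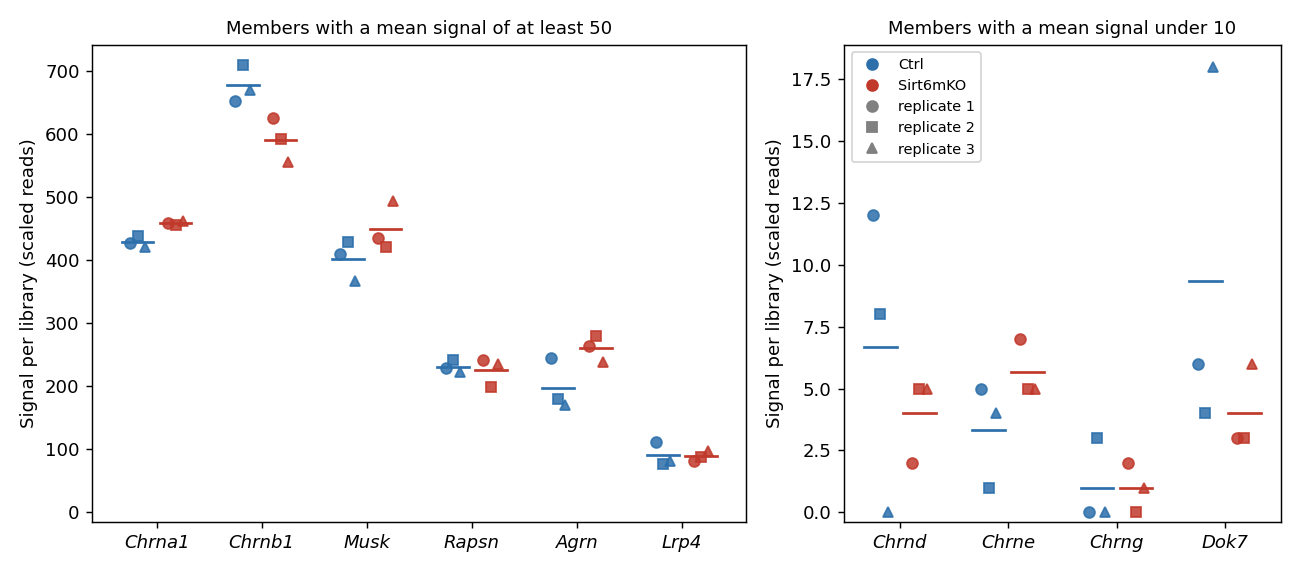
Signal of each member in each library. The y axes give the signal (reads divided by the size factor of the library) from 0, points are libraries with the replicate number as shape, and horizontal bars are group means of 3. *Chrnb1* is the only tested member with every Sirt6mKO library below every Ctrl library, and the 4 scarce members stay at or under 18.

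*Chrna1* (ENSMUSG00000027107; chr2:73563215-73580338, minus strand) encodes the α1 subunit, which carries the main acetylcholine binding sites. The Sirt6mKO replicates had a signal of 458, 455 and 462 and the Ctrl replicates one of 427, 438 and 421. The Sirt6mKO libraries were all higher, but the step between the groups was small and the libraries of each group were close together. The values rest on 489 to 610 reads in Sirt6mKO and 235 to 601 in Ctrl libraries. The spread within each group was thus smaller than counting error. The means were 458 ± 3.51 and 429 ± 8.62 (SD, n = 3 each), a 1.07-fold difference (95% interval 0.919 to 1.24) with an adjusted p of 0.68 by limma. The exact two-sided permutation test gave p = 0.1, the smallest that 3 against 3 allows.

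*Chrnb1* (ENSMUSG00000041189; chr11:69784036-69795943, minus strand), which encodes the β1 subunit, had a signal of 626, 592 and 555 in Sirt6mKO and 653, 710 and 669 in Ctrl. Here the Sirt6mKO libraries were all lower, and the spread within each group was wider than for *Chrna1*. The means were 591 ± 35.5 and 677 ± 29.4 (SD, n = 3 each), and the log2 fold change was −0.20 (95% interval −0.42 to 0.03; adjusted p 0.35 by limma). The exact permutation p was again 0.1.

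The other 3 subunits were carried by few reads. *Chrnd* (ENSMUSG00000026251; chr1:87190607-87200070, plus strand), for the δ subunit, had a signal of 2, 5 and 5 in Sirt6mKO and 12, 8 and 0 in Ctrl, from 35 reads in all. The control libraries spanned the Sirt6mKO ones, and the 0 in Ctrl replicate 3 still allows a signal of up to 5.38 (3 reads). The 95% interval of the fold change, 0.279 to 3.4, was wide and did not exclude a 2-fold change in either direction.

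*Chrng* (ENSMUSG00000026253; chr1:87204657-87212694, plus strand), for the fetal γ subunit, had a signal of 2, 0 and 1 in Sirt6mKO and 0, 3 and 0 in Ctrl. With 7 reads in all and at most 3 reads in 5 of the 6 libraries, no fold change is given. *Chrne* (ENSMUSG00000014609; chr11:70614883-70619216, minus strand), for the adult ε subunit, had a signal of 7, 5 and 5 in Sirt6mKO and 5, 1 and 4 in Ctrl from 27 reads in all. The groups met at 5, and the exact two-sided permutation p was 0.3. A switch between the γ and ε subunits cannot be read from these values.

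The synaptic kinase and its scaffold were abundant and similar in both groups. *Musk* (ENSMUSG00000057280; chr4:58285960-58374303, plus strand) had a signal of 435, 420 and 493 in Sirt6mKO and 410, 428 and 367 in Ctrl. Ctrl replicate 2 lay above Sirt6mKO replicate 2, so the groups overlapped. The fold was 1.12 (95% interval 0.941 to 1.33; adjusted p 0.51 by limma).

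*Rapsn* (ENSMUSG00000002104; chr2:91035620-91045729, plus strand) had a signal of 241, 199 and 235 in Sirt6mKO and 229, 241 and 222 in Ctrl. The highest value of each group was the same, and the fold was 0.973 (0.809 to 1.17; adjusted p 0.91 by limma). Of its 1802 exon bases, 4 are shared with *Gm13778* on the other strand.

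*Dok7* (ENSMUSG00000044716; chr5:35056766-35087839, plus strand) had a signal of 3, 3 and 6 in Sirt6mKO and 6, 4 and 18 in Ctrl, from 34 reads in all. The 18 came from 10 reads of the shallowest library, Ctrl replicate 3, and without it the gene fell under the mean required for a test. The log2 fold change was −0.86 with a 95% interval of −2.06 to 0.35 (adjusted p 0.47 by limma).

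The agrin receptor *Lrp4* (ENSMUSG00000027253; chr2:91457511-91513779, plus strand) had a signal of 82, 87 and 98 in Sirt6mKO and 112, 77 and 82 in Ctrl. The control libraries spanned all Sirt6mKO libraries, and the fold was 0.996 (0.765 to 1.3; adjusted p 0.99 by limma).

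*Agrn* (ENSMUSG00000041936; chr4:156165290-156197488, minus strand) encodes the proteoglycan agrin. Muscle-made agrin is a constituent of basal laminae, and only the neural splice form clusters receptors strongly. The gene-level values do not separate the splice forms. The Sirt6mKO libraries had a signal of 263, 279 and 238 and the Ctrl libraries one of 244, 179 and 170. Ctrl replicate 1 lay among the Sirt6mKO libraries and the other controls lay below all of them. The means were 260 ± 20.7 and 198 ± 40.4 (SD, n = 3 each), and the fold was 1.33 (1.06 to 1.66), with an unadjusted p of 0.017 and an adjusted p of 0.16 by limma. Without Ctrl replicate 1 the log2 fold change was 0.57 and the adjusted p 0.036 by limma, under the required 2-fold; over all alternatives the adjusted p ran from 0.036 to 0.39.

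**Figure D3:**
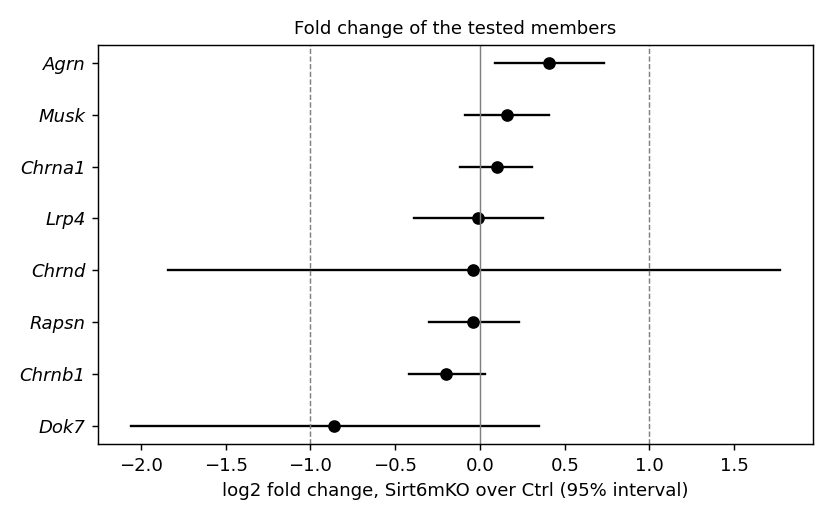
Fold changes of the 8 tested members. Points give the log2 fold change of Sirt6mKO over Ctrl from limma-trend and lines its 95% interval, with dashed lines at 2-fold in either direction. The intervals of *Chrnd* and *Dok7* reach past 2-fold, whereas those of the 6 abundant and middle members stay within it.

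For the 6 members whose mean signal reached 50 the 95% interval lay within 2-fold in either direction, so a 2-fold change of any of them was outside its interval. This was so for 92.5% of the 7394 genes of such signal. The median size of the log2 fold change was 0.13 for these 6 members and 0.16 for those genes. The myofiber marker sum was higher in Sirt6mKO replicates 1 and 2 than in the other libraries. In those 2 libraries *Chrnb1* (626 and 592, against 555 in Sirt6mKO replicate 3) and *Agrn* (263 and 279, against 238) were higher than in Sirt6mKO replicate 3. *Chrna1* (458 and 455, against 462), *Musk* (435 and 420, against 493) and *Lrp4* (82 and 87, against 98) were lower there, and *Rapsn* lay on either side (241 and 199, against 235). The difference of *Chrna1* was within counting error. The part of fiber RNA in these values was not tested. For *Agrn* the fibroblast marker sum moved along in part only. Ctrl replicate 1, with the highest *Agrn* of the controls (244), also had their highest sum (13388). Sirt6mKO replicate 3, with the lowest *Agrn* of its group (238), had the highest sum of all libraries (14726). The part of fibroblast RNA in the *Agrn* values was not tested.

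Genes whose pattern over the 6 libraries was most like that of 3 members were sought among the same 7394 genes, by the root mean square difference of centred log2(signal + 1). For *Chrna1* they were *Rfk* and *Chp1* (0.022 each) and *Pikfyve* (0.026). For *Musk* they were *Prdx5* (0.019), *Pcdh18* (0.02) and *Rab8b* (0.034). For *Agrn* they were *Plekhh3* (0.068), *Zmiz1* (0.073) and the membrane-bound matrix metalloproteinase gene *Mmp14* (0.075). None of these genes belongs to the other synapse lists described next. They are the closest of 7394 genes over only 6 values, and how often unrelated genes match as closely was not tested. *Rfk* had a signal of 48 to 54, where 1 read stands for 0.729 to 1.792. Counting error at that level is larger than the differences listed for *Chrna1*, so no shared control is read from these matches.

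Around the members, 7 lists of 91 further synapse genes were counted, of which 80 were in the table and 66 were tested. Of these, 3 (4.55%) were called higher and 0 lower by limma-trend, with a median log2 fold change of 0.01; by the adjusted p alone 6 were higher and 2 lower. The shares among all tested genes were those given above. The partners of MuSK, DOK7, rapsyn and the receptor, such as kinases, adaptors and chaperones, held no called gene among 19 tested (median −0.01). The most abundant were the chaperone gene *Hsp90ab1* (−0.04, adjusted p 0.91), the microtubule and actin linker gene *Macf1* (−0.21, adjusted p 0.36) and *Prkar1a* (−0.24, adjusted p 0.25), for a regulatory subunit of protein kinase A, all on the log2 scale from limma.

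Of the regulators of subunit transcription, 17 were tested and 1 was called. *Myf6*, the gene of the myogenic factor MRF4, had a signal of 34, 21 and 35 in Sirt6mKO and 9, 6 and 7 in Ctrl. Every Sirt6mKO library exceeded every control, and the log2 fold change was 1.88 ± 0.33 (SE; adjusted p 0.0068 by limma). The adjusted p was 0.065 without Sirt6mKO replicate 1. *Myf6* is also expressed in fibers, and the lowest myofiber marker sum of Sirt6mKO (1848) exceeded the highest of the controls (1615). Within Sirt6mKO the order was opposite: replicate 3 had the highest *Myf6* (35) and the lowest sum. Replicate 2 had the lowest *Myf6* (21) and the highest sum (3980). The part of fiber RNA in the *Myf6* difference was not tested. By the adjusted p alone 3 more genes differed, named after their values were seen: *Id3*, for an inhibitor of E-box factors, was higher (0.83, adjusted p 0.022), while *Etv5*, for an ETS factor (−0.59, adjusted p 0.032), and *Myod1* (−0.86, adjusted p 0.045) were lower in log2 by limma. These passes were lost in several alternatives: *Id3* reached an adjusted p of 0.13, and was above 0.05 without Sirt6mKO replicate 2 or 3 or Ctrl replicate 2 or 3. *Etv5* reached 0.17, and was above 0.05 with no filter and without any single library other than Sirt6mKO replicate 2. *Myod1* reached 0.18. It was above 0.05 with a pseudocount of 0.1, with no filter, at a mean of at least 50, and without any single library other than Ctrl replicate 1. The 3 most abundant regulators were *Tcf4* (0.03), *Myf5* (−0.03) and *Hdac4* (−0.39, adjusted p 0.07 by limma), the last known for promoting synaptic gene expression in denervated fibers. The median of the list was 0.01.

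Of the genes of the synaptic basal lamina and postsynaptic membrane 17 were tested, and 2 were called higher. *Lama5*, for the laminin α5 chain, had a signal of 471, 447 and 345 in Sirt6mKO and 237, 207 and 152 in Ctrl. The groups lay apart, with a log2 fold change of 1.09 ± 0.17 (SE; adjusted p 0.0035 by limma), which went under 2-fold without Ctrl replicate 3. *Sntb1*, for β1-syntrophin of the dystrophin complex, had a signal of 195, 157 and 143 in Sirt6mKO and 106, 70 and 48 in Ctrl. These groups lay apart as well (1.19 ± 0.24, adjusted p 0.014 by limma). However, the adjusted p was above 0.05 without Sirt6mKO replicate 1, Sirt6mKO replicate 2 or Ctrl replicate 2, reaching 0.12. The fold went under 2-fold without Ctrl replicate 3.

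By the adjusted p alone, and named after their values were seen, the basal lamina genes *Lamb2* (0.60, adjusted p 0.0091) and *Nid2* (0.85, adjusted p 0.0068) were higher as well by limma. The adjusted p of *Lamb2* was 0.057 without Sirt6mKO replicate 2, and that of *Nid2* stayed at or under 0.049 in the alternatives. The median of the list was 0.28, against 0.00 for all tested genes. Its most abundant genes were *Dag1* for dystroglycan (−0.27, adjusted p 0.31), *Hspg2* for perlecan (0.55, adjusted p 0.084) and *Utrn* for utrophin (0.01, adjusted p 0.98). The myofiber marker sum separated the groups in the same direction as the called genes, but narrowly (1848 in Sirt6mKO replicate 3 against 1615 in Ctrl replicate 3). Of that 1848, *Ttn* gave 657 and *Neb* 373. Only 7 of the 17 tested myofiber markers had every Sirt6mKO library above every Ctrl library, and 0 had every one below. The fibroblast sum overlapped between the groups. The tested markers had a median log2 fold change of 1.13 for myofibers and 1.36 for fibroblasts. The part of myofiber and fibroblast RNA in the differences of the listed genes was not tested.

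**Figure D4:**
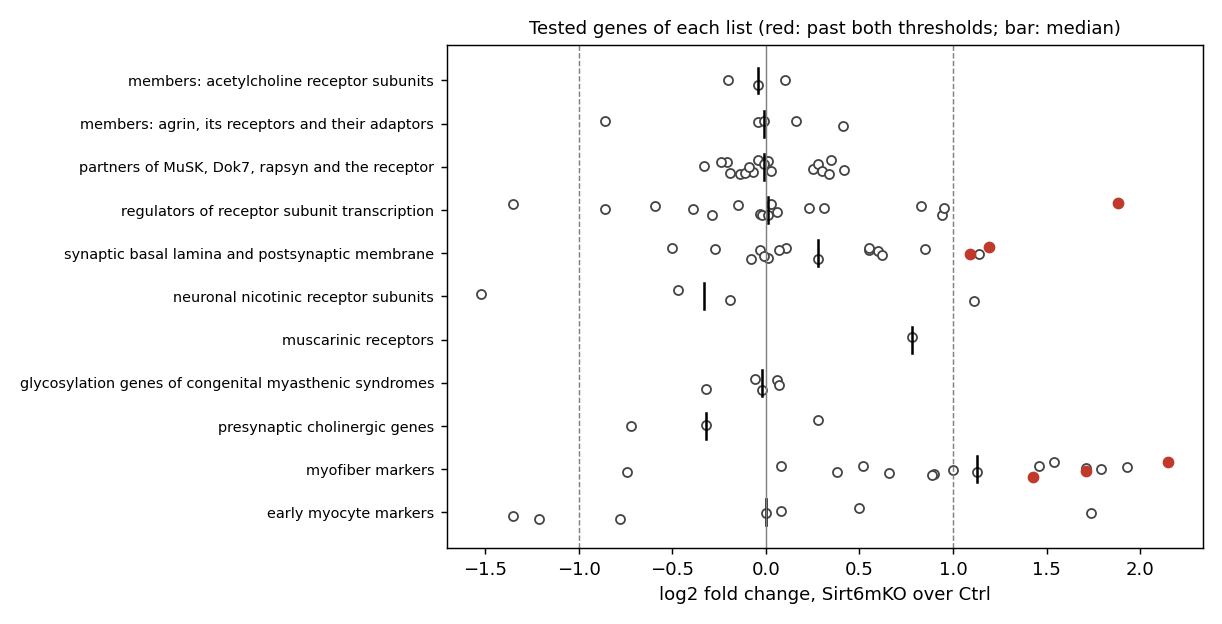
Fold changes of the tested genes in each list. Points give the log2 fold change of Sirt6mKO over Ctrl, red points passed both thresholds, bars are list medians and dashed lines mark 2-fold. No member is red, 3 of the other synapse genes are, and the myofiber markers have a median of 1.13.

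The remaining lists held no called gene. Of 11 neuronal nicotinic subunit genes 6 were in the table and 4 were tested, with *Chrna7* (−0.47, adjusted p 0.49), *Chrna10* (1.11, adjusted p 0.16) and *Chrna4* (−1.52, adjusted p 0.28) as the most abundant. *Chrm3* was the muscarinic receptor gene that could be tested, with a signal of 42, 39 and 34 in Sirt6mKO libraries and 23, 32 and 14 in Ctrl libraries. Its groups lay narrowly apart, with a log2 fold change of 0.78 and an adjusted p of 0.18 by limma. The 5 glycosylation genes that underlie congenital myasthenic syndromes had a median of −0.02, and their most abundant genes were *Gfpt1*, *Alg2* and *Alg14*. Among presynaptic cholinergic genes 3 of 8 were tested, among them *Rab3a* (0.28) and *Vamp1* (−0.32), on the log2 scale. *Chat*, *Slc18a3* and *Slc5a7*, which define cholinergic nerve endings, were not among the genes of the table, which lists no gene without a signal.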

How the data were processed

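Per the labels, ribosomal RNA was removed with RiboGone and stranded SMARTer libraries were sequenced in 75-base single reads, whereas the methods name RiboMinus and the Ion Total RNA-Seq system. For the authors' processing, STAR (mm10 genome) and featureCounts gave reads per gene, excluding reads on several genes or regions; whether strand was used is not given in the sources used here. The deposited signal is reads divided by a size factor and rounded by the authors, so that a count test could not be used as deposited. Size factors were recovered by a likelihood fit to how often each whole number occurred. Of the whole numbers up to 60, some were empty only in Ctrl replicates 1 (11) and 3 (27).

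The members, gene lists and tests were chosen with earlier results of these data known. All 6 libraries were fitted together with limma-trend (limma 3.58.1, R 4.3.3) on log2(signal + 1), for genes of mean signal at least 5, without further scaling, and p-values were Benjamini-Hochberg adjusted over all tested genes. Fold changes on this scale understate those of low genes. Fits were tested on simulated data. Single genes were also compared with an exact two-sided permutation test over 20 arrangements. Exon lengths came from GENCODE (GRCm38), in which 99.7% of the genes were found, 98.9% at the same position, and promoter windows from RefSeq (GRCm38.p6). Named are the members, of each synapse list the called genes and those of the 3 most abundant that were tested, and the likest patterns. Others are said to be chosen later. Of the cell type markers only some were named. One gene that this rule names is not reported here. Alternatives covered scaling, pseudocount, filter, replicate block, robust fit, threshold, limma voom on estimated reads, and each library left out. Python 3.11.15, pandas 2.3.3, scipy 1.17.1 and matplotlib 3.10.9 were used.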

Additional observations from a re-analysis of the deposited data

How the results depend on the processing

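Under the 17 alternatives 0 members were called in either direction. Of 131 member fold changes, 124 kept their direction and 7 reversed, all in genes with an adjusted p of at least 0.7 there. *Chrnd* was 0.83 with a pseudocount of 0.1 and −1.18 to 0.29 with single libraries left out, *Rapsn* −0.09 to 0.05 and *Lrp4* −0.11 to 0.16 with single libraries left out, and *Lrp4* 0.01 with limma voom. *Chrnd* could not be tested without Ctrl replicate 1 or 2 or at a mean of at least 50, nor *Dok7* without Ctrl replicate 3 or at that mean. *Agrn* alone passed an adjusted p of 0.05, without Ctrl replicate 1.

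Genes called higher numbered 223, with 76 at a mean of at least 50 (fewer genes tested), 376 by the adjusted p alone and 88 to 294 with single libraries left out (92 without Sirt6mKO replicate 1, 88 without replicate 2). Genes called lower numbered 145, with 52, 267 and 81 to 151 in that order (81 without Sirt6mKO replicate 1, 91 without its replicate 2, 89 without Ctrl replicate 2). Of the listed synapse genes 3 were higher, 6 by the adjusted p alone and 1 to 4 with single libraries left out (1 without Sirt6mKO replicate 1, *Lama5*, and 1 without Ctrl replicate 3, *Myf6*). None was lower, with 2 by the adjusted p alone and 0 to 1 with single libraries left out (*Myog*, without Sirt6mKO replicate 3 or Ctrl replicate 1). The cause of these shifts was not tested beyond the smaller number of libraries.

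Same-numbered libraries deviated together with correlations of 0.05, 0.05 and 0.24, so the numbers were not taken as pairs, and not every library correlated best with its own number. With the replicate number as a block 0 members, 268 higher, 167 lower, and 4 higher and 1 lower listed genes (*Myog*) were called. Depth limits *Chrnd*, *Chrng*, *Chrne* and *Dok7*, with 7 to 35 reads each.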

Other observations

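The ratio of *Chrnb1* to *Chrna1*, which does not depend on how libraries were scaled, was looked at after the values of both genes were seen. Per kilobase it was 2.37, 2.25 and 2.08 in the Sirt6mKO replicates and 2.65, 2.81 and 2.75 in the Ctrl replicates. The groups did not overlap, with means of 2.23 ± 0.15 and 2.74 ± 0.08 (SD, n = 3 each). Exact 95% counting intervals of the nearest libraries, 2.12 to 2.64 for Sirt6mKO replicate 1 and 2.31 to 3.04 for Ctrl replicate 1, overlapped. The pair was picked because its members lay apart in opposite directions, so no test is given.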
